A study of Mus musculus with 96 samples.

Results

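The cells described here are 15 single erythroid progenitors of the BFUE sort gate, divided by their own Gata2 level into 8 Gata2-high and 7 Gata2-low cells. BFUE stands for burst-forming unit-erythroid, the earliest progenitor committed to the red cell lineage. Of the 24 BFUE wells, 1 fell under the minimum of 50000 reads and 8 were left out because they held 100 CPM or more of Cd34 (CPM, reads per 1000000 reads of the cell), a marker of immature blood progenitors. Cells with 90 CPM or more of Gata2 formed the Gata2-high side and the others the Gata2-low side. They are 15 of 91 wells kept in the whole series and of 96 wells deposited.

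The series is a plate of fetal liver progenitors of C57/Bl6J mice at embryonic day 14.5, with 1 sorted cell per well and RNA read as whole transcripts by Smart-seq2, given as reads per gene. All groups came from fetal liver from which antibody-labelled cells had been removed with beads, the antibodies being against lymphoid, myeloid and late erythroid surface proteins, Sca-1, CD16/32 and CD41. The remaining cells were sorted by Kit, CD71 and CD24 into BFUE, a lower and an upper intermediate gate named for 25-35% and 50-60% of CD71/CD24, and CFUE, the colony-forming units that follow. No genetic change or treatment is labelled in any group. Which embryo a cell came from is not labelled, so the cells of a side are not replicates and each side counts as 1 sample. The sides were chosen by a measured gene, so no test was run and every difference below is a description of these cells. CD41, one of the proteins used for removal, is the product of Itga2b.

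Gata2 is a zinc finger transcription factor of stem cells and early progenitors that also works in megakaryocyte and mast cell precursors. During red cell development the related factor Gata1 takes over at many of the DNA sites that Gata2 occupied and helps to silence the Gata2 gene. Megakaryocytes, the cells that shed platelets, and red cells come from a shared progenitor, and both lineages use Gata1. Markers of the early megakaryocyte path include integrin alpha IIb (Itga2b) and the glycoproteins of the platelet surface. The erythroid path is marked by Klf1, the erythropoietin receptor, heme enzymes and membrane proteins of the red cell.

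Upstream sequence of 4 genes on which the comparison turns is shown first, 2 of the megakaryocyte surface and the Rh pair of the red cell membrane. Each window is the 250 bases before the start given by RefSeq on GRCm38.p6, written 5′ to 3′ along the gene. For Itga2b and Rhag that start lies inside the gene span given below, which is from GENCODE M21 and includes a transcript that begins further upstream. Capitals mark GATAA, or TTATC where it lies on the other strand, letters that GATA factors are known to bind. The Itga2b window is chr11:102469884-102470133 on the minus strand, that of Gp9 chr6:87777820-87778069 on the plus strand, that of Rhag chr17:40810899-40811148 on the plus strand and that of Rhd chr4:134864286-134864535 on the plus strand.
Itga2b: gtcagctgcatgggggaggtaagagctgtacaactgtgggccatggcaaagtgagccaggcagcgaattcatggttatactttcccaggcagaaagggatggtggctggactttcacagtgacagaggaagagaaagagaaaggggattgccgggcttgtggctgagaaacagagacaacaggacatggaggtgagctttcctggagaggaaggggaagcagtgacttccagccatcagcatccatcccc
Gp9: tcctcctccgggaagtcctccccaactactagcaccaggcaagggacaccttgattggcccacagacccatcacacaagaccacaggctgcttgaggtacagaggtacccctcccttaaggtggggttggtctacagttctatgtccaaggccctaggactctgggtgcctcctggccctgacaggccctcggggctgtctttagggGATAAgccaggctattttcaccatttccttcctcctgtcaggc
Rhag: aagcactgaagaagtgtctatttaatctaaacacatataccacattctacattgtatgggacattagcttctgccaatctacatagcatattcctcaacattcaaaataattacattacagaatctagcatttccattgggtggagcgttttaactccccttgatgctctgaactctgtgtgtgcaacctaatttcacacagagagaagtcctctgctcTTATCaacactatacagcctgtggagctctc
Rhd: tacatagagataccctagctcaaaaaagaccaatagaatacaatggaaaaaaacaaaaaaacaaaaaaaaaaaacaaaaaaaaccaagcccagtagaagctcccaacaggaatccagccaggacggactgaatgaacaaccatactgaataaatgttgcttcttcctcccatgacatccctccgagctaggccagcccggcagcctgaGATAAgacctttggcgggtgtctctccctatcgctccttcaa
The Gp9 match begins 43 bases before the start, the Rhag match 31 bases and the Rhd match 42 bases, and the Itga2b window holds none. Distances are from the RefSeq start. These letters were present in 22.6% of all 32851 such windows and in 14.9% of windows of measured genes. They were in 17% of windows of genes past 2-fold higher in Gata2-high cells and in 16% of those past 2-fold lower, under the rule given below. Of the genes named as the 15 largest differences in each direction, 0 of 14 windows on the higher side and 2 of 15 on the lower side held them, and 3 of the 4 windows shown, which were chosen for their genes, hold a match. A match is a description of the letters only.

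Gata2 chose the sides, and its values are given without a test. The Gata2-high cells held 92.9 CPM at the lowest, 290 at the median and 1353 at the highest, and the Gata2-low cells 0.620, 3.34 and 40.5 CPM. The cell just inside the limit was that of well C3 with 92.9 CPM (149 reads), and the cell just outside that of well E1 with 40.5 CPM (62 reads). No cell lay between, so the limit fell in a gap of the values. Within the Gata2-high side, wells D1 (1353 CPM) and G2 (825 CPM) stood above wells G3, D3 and A2 (287 to 332 CPM) and wells H1, B3 and C3 (92.9 to 122 CPM). In the Gata2-low side, wells E1, F2 and F3 held 28.4 to 40.5 CPM, and the other 4 cells 5 reads or fewer.

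Outside the 15 cells, Gata2 was at 94.5 CPM in the summed counts of the 8 cells left out by Cd34, of which 2 reached 90 CPM. It was at 15.6 CPM in the lower intermediate gate, close to the 15.8 CPM of the Gata2-low cells, and at 1.48 CPM in the upper intermediate gate and 0.395 CPM in CFUE. No cell of these 3 gates reached 90 CPM, and the highest had 72.4 CPM. Cd34, the other gene of the rule, was at most 5.16 CPM among the 15 cells and at least 1036 CPM among those left out.

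**Figure D1:**
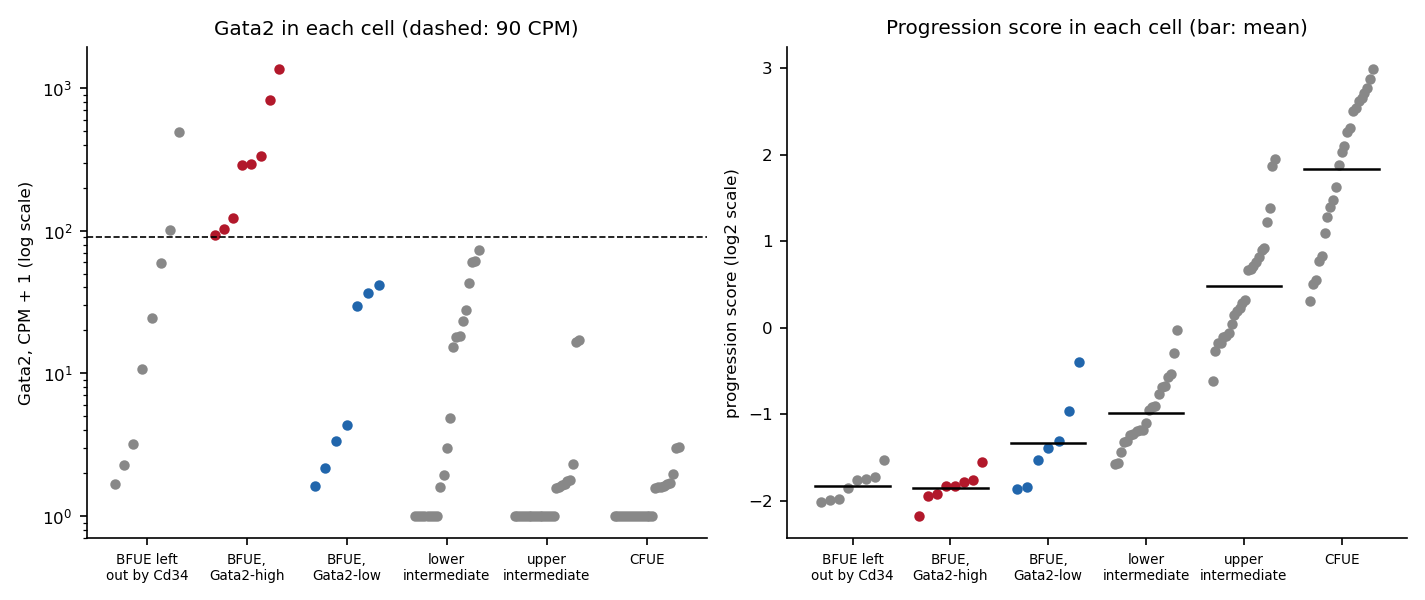
Left, Gata2 of every kept cell as CPM + 1 on a log axis, with the limit of 90 CPM dashed; right, the progression score of the same cells on a log2 scale, with the mean as a bar. Red points are the 8 Gata2-high and blue points the 7 Gata2-low BFUE cells, and their progression means are -1.85 and -1.33, before the lower intermediate mean of -0.98.

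The 15 cells matched their label by erythroid genes. Gata1, the factor required for red cell development, was at 216 to 583 CPM in the Gata2-high cells and 189 to 504 CPM in the Gata2-low cells, so the ranges overlapped almost wholly. Its summed counts were 1.12-fold higher in the Gata2-high cells (1.08 to 1.16; 95% interval of the ratio, counting error only). The ratio of Gata1 to Gata2 reads was 0.261 to 4.81 in Gata2-high cells and 10 to 813 in Gata2-low cells, a gap that the choice of sides on Gata2 produces. Kit, the stem cell factor receptor used in the sort, was at 188 to 1237 CPM and 407 to 1158 CPM. Klf1 and Epor were at 10 CPM or more in every cell of both sides, while the cells left out by Cd34 held 18.5 CPM of Klf1 and 12.7 CPM of Gata1 in their summed counts.

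Depth was even apart from 1 cell. Reads per cell ran from 1464907 to 3785903 in Gata2-high cells, where well D3 had the most and the others at most 1899938, and from 1495583 to 1758307 in Gata2-low cells. Genes with a read numbered 9295 to 9898 and 9118 to 9758, and mitochondrial transcripts took 1.16 to 2.37% and 1.13 to 1.77% of reads. Xist, the transcript of the inactive X chromosome, reached 5 CPM in 5 of 8 Gata2-high and 3 of 7 Gata2-low cells, and genes of the Y chromosome reached it in 2 of 8 and 4 of 7 cells. Plate rows A to D held 5 of the 8 and 2 of the 7 cells. The part of embryo and of plate row in the differences below was not tested.

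A gene was counted as measured at 10 CPM or more in the summed counts of the 15 cells, which 7842 genes were. A gene could reach this limit through 1 side alone. In the summed counts of the Gata2-low cells, Il1rl1, Tsc22d3, Ier3, Ahsg and Pecam1, all in lists below, were among the genes under it. In those of the Gata2-high cells, Cldn13 was. List counts that include such genes are descriptions and no test of the list. It was counted as past 2-fold where the summed counts, the mean of the per-cell CPM and the summed counts without the top cell of the higher side all differed by 2-fold or more in the same direction. In Gata2-high cells 409 genes (5.22%) were past 2-fold higher and 241 (3.07%) past 2-fold lower, with a median log2 ratio of 0.01 over all measured genes. In only 2 genes (0.0255%) did every Gata2-high cell exceed every Gata2-low cell, and in only 1 gene (0.0128%) did every Gata2-low cell exceed every Gata2-high cell, Gata2 itself not counted. For the other genes past 2-fold the cells of the sides overlapped. Without well D3, the deepest cell, 391 and 260 genes were past 2-fold, of which 267 and 166 were among the 409 and 241. Within plate rows A to D the counts were 1121 higher and 346 lower, and within rows E to H 393 and 567, so the balance of higher and lower genes differed between these rows (76.4% and 40.9% higher, against 62.9% over all rows).

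**Figure D2:**
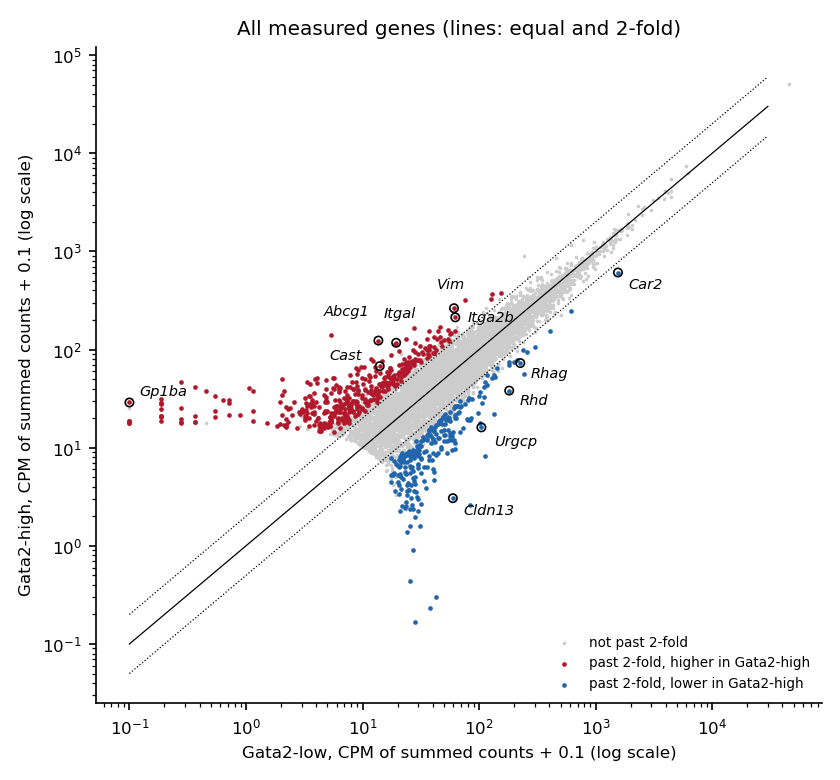
Every measured gene by its CPM + 0.1 in the summed counts of the 7 Gata2-low cells (x) and the 8 Gata2-high cells (y), both on log axes, with lines of equality and of 2-fold difference. Red points are the 409 genes past 2-fold higher and blue points the 241 past 2-fold lower in Gata2-high cells, and circled genes are described in the text.

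The megakaryocyte genes lay to the Gata2-high side about as far as the stem cell genes described below, and further than the other lists with 5 or more measured genes. Of 32 genes in the list, 17 were measured, and 10 of these were past 2-fold higher and 0 past 2-fold lower (against 5.22% and 3.07% of all measured genes). Their median log2 ratio was 1.77, against 0.01 over all measured genes, with genes at 0 set to 3 reads. Some members, Gp1ba, Mmrn1 and Plek among them, reached the limit for measured genes only through Gata2-high cells. This count and median are therefore descriptions and no test of the list. Per cell, the number of the 17 genes at 10 CPM or more was 5 to 16 (median 10.5) in Gata2-high cells and 3 to 9 (median 7) in Gata2-low cells. In the 8 cells left out by Cd34 it was 7 to 11 (median 8.5), and in the 21 lower intermediate cells 2 to 8. The list's score, the mean of log2(CPM + 10) over its measured genes, was 5.31 ± 1.04 (SD, n = 8 cells) and 4.38 ± 0.38 (SD, n = 7 cells), with 5.05 in the cells left out by Cd34. The difference of 0.94 was smaller than the SD among Gata2-high cells, in which wells D1 (6.89) and G2 (6.69) stood highest and well B3 (4.01) lay below 5 of the 7 Gata2-low cells.

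Itga2b (chr11:102453297-102470122), the alpha subunit of the platelet fibrinogen receptor, was at 0, 128 and 881 CPM at the lowest, median and highest of the Gata2-high cells. In the Gata2-low cells it was at 0.620, 40 and 241 CPM. Wells G2 (881 CPM), D1 (520), A2 (334) and C3 (181) were high, whereas D3 and B3 of the same side held under 1 CPM, and well A1 of the Gata2-low side held 241 CPM with 1.17 CPM of Gata2. The summed counts were 3.41-fold higher in Gata2-high cells (3.14 to 3.70), and 2.12-fold without the top cell. Outside the 15 cells Itga2b was at 33.9 CPM in the cells left out by Cd34, 8.85 CPM in the lower intermediate gate and 2.37 CPM in CFUE.

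The glycoproteins that bind von Willebrand factor on platelets were low and uneven. Gp9 reached 10 CPM in 6 of 8 Gata2-high cells (at most 45.1 CPM) and in 1 of 7 Gata2-low cells (20.8 CPM), 6.38-fold higher in summed counts (4.48 to 9.34). Gp1ba was at 0, 14.5 and 76.8 CPM in the Gata2-high cells and had 0 reads in all Gata2-low cells, which with a floor of 3 reads over the side is at least 109-fold higher. Gp5 was at 0.658, 65 and 179 CPM against 0, 29.6 and 82.1 CPM and was not past 2-fold, since its fold was 1.73 without the top cell. Gp1ba and Gp5 also occurred in later gates, Gp1ba at 9.93 CPM in CFUE and Gp5 at 16.1 CPM in the lower intermediate gate.

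Genes of signalling and secretion on the megakaryocyte list showed the same uneven pattern. Plek (pleckstrin, a protein kinase C substrate of platelets) was at 0, 12 and 222 CPM in Gata2-high cells and at most 7.63 CPM in Gata2-low cells, with wells D1 and A2 highest. Lat, an adaptor below the collagen receptor, was at 5.61, 53.2 and 136 CPM against 0, 0.669 and 63.3 CPM, and reached 10 CPM in 7 of 8 and 2 of 7 cells. Treml1, a receptor of platelet granules, was 4.34-fold higher in summed counts (3.42 to 5.56). Mmrn1, a protein of platelet granules, was highest in well D1 (174 CPM), with 37.5 CPM in well D3, 16.8 CPM in well C3 and 1 read in all Gata2-low cells. F2r, a thrombin receptor, was at 23, 241 and 862 CPM against 14.9, 138 and 317 CPM and, with 1.78-fold without the top cell, not past 2-fold.

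Of the megakaryocyte list, 9 members were at 0. Pf4, Ppbp, Itgb3, Gp6, Thbs1, Selp, Clec1b, Alox12 and Serpine2 had 0 reads in all 15 cells, whereas Tubb1 and Gp1bb, below the limit for measured genes, reached 10 CPM in 2 Gata2-high cells and 1 Gata2-low cell each. Vwf was at 10 CPM or more in 2 Gata2-high cells and 1 Gata2-low cell. The summed depth was 14873283 reads on the Gata2-high side and 11336138 on the Gata2-low side.

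**Figure D3:**
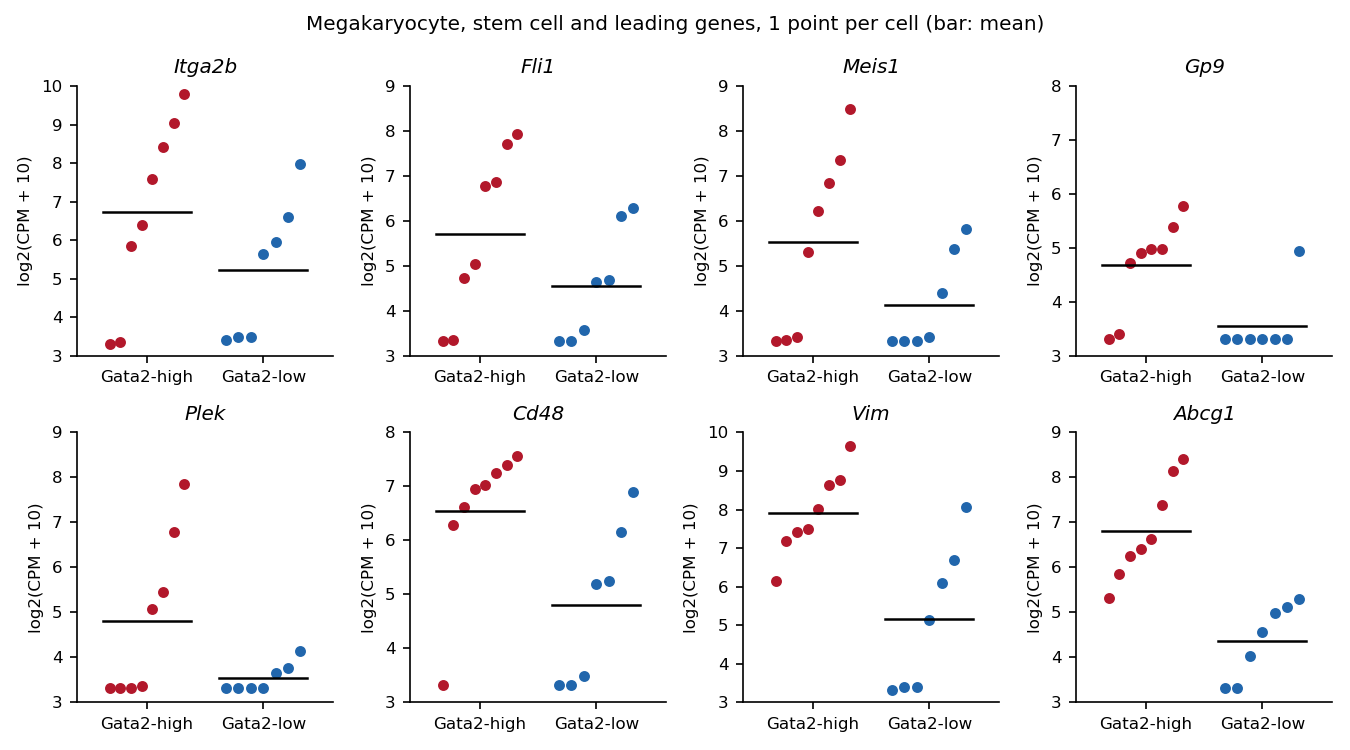
Log2(CPM + 10) of 8 genes in each of the 8 Gata2-high (red) and 7 Gata2-low (blue) cells, with the mean of each side as a bar; a cell without reads lies at 3.32. Abcg1 does not overlap between the sides, whereas Itga2b, Fli1, Meis1, Gp9, Plek, Cd48 and Vim do.

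Transcription factors used by stem cells and megakaryocytes did not all lie the same way. Fli1, an ETS factor required for megakaryocytes, was at 0, 61.4 and 236 CPM in Gata2-high cells and at 0, 14.8 and 67.6 CPM in Gata2-low cells. Wells G2, D1, G3 and A2 (100 to 236 CPM) exceeded every Gata2-low cell, and the summed counts were 3.11-fold higher (2.72 to 3.57). Meis1, a homeodomain factor of stem cells and megakaryocytes, was at 0, 47.4 and 349 CPM against 0, 0.669 and 46.5 CPM, 6.19-fold higher (5.19 to 7.44). Both were low in the lower intermediate gate, at 5.09 and 6.41 CPM. Among the 12 measured partners of GATA factors the median log2 ratio was 0.12. Fli1 was the only gene past 2-fold higher and 0 were past 2-fold lower (against 5.22% and 3.07% of all measured genes). Tal1 (36.2 to 248 against 4.55 to 267 CPM) and Lmo2 (354 to 1036 against 226 to 791 CPM), members of the complex that GATA factors form on DNA, overlapped widely. Gfi1b, a repressor of both lineages, was at 1.25, 160 and 616 CPM against 58.7, 438 and 1406 CPM, 2.20-fold lower in summed counts but 1.54-fold without the top cell and so not past 2-fold.

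Of 24 stem and multipotent progenitor genes besides Cd34, 10 were measured, with a median log2 ratio of 1.76. Of these, 5 were past 2-fold higher (Meis1, Cd48, Slamf1, Angpt1 and Ikzf2) and 0 past 2-fold lower (against 5.22% and 3.07% of all measured genes). Angpt1 and Ikzf2 reached the limit for measured genes only through Gata2-high cells, so the count and the median are descriptions and no test of the list. The score was 5.64 ± 0.61 (SD, n = 8 cells) against 4.73 ± 0.44 (SD, n = 7 cells), a difference larger than either SD, and it was 6.59 in the cells left out by Cd34. Its ranges overlapped, at 4.76 to 6.36 in Gata2-high cells and 4.35 to 5.59 in Gata2-low cells, where well E1 stood highest. Cd48, a ligand on progenitor cells, was at 0, 117 and 179 CPM in Gata2-high cells and at 0, 26.7 and 110 CPM in Gata2-low cells. Well H1 alone of the Gata2-high side had 0 reads of it. Slamf1 (CD150), a receptor of stem cells and megakaryocyte precursors, was at 0, 55.3 and 103 CPM against 0, 0.587 and 42.4 CPM, and the cells left out by Cd34 held only 0.501 CPM. Angpt1, the angiopoietin secreted by stem and megakaryocyte progenitors, reached 10 CPM in wells G2, D1 and G3 (36.8 to 113 CPM) and had 1 read in all Gata2-low cells. Adgrg1, an adhesion receptor, was at 315, 877 and 1298 CPM against 151, 497 and 647 CPM, 1.88-fold higher in summed counts (1.82 to 1.94). Mecom, Procr, Hoxb4, Prom1, Cebpa and Emcn of this list had 0 reads in all 15 cells.

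Mast cell genes could be followed for 3 members only. Il1rl1, the interleukin 33 receptor, was past 2-fold higher (0, 17.5 and 104 CPM against 0, 0.569 and 39.2 CPM), while Srgn and Slc18a2 were not. Ms4a2, Fcer1a, Gzmb, Mcpt8, Cma1 and 8 further members had 0 reads, while Hdc had 50 reads in the Gata2-low cells and 0 in the Gata2-high cells and Cpa3 had 1 read in all. Fcer1g and Alox5 had 92 and 95 reads in the Gata2-high cells and 1 read each in the Gata2-low cells. The list's summed level was 133 to 700 CPM in Gata2-high cells and 68.9 to 291 CPM in Gata2-low cells. Srgn, which many blood cells express, made up 99.3 to 438 and 64.1 to 247 CPM of this.

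Car1, carbonic anhydrase 1 of red cells, was one of 3 markers given for these cells together with Gata2 and Itga2b. It was at 3.28, 149 and 4264 CPM in Gata2-high cells and at 4.01, 93.0 and 882 CPM in Gata2-low cells. Wells C3 (4264), G2 (2472) and D1 (1084) were above every Gata2-low cell, while B3 held 3.28 CPM. The summed counts were 3.67-fold higher (3.52 to 3.83), but 1.98-fold without well C3, so that Car1 was not past 2-fold. Car2, the other main carbonic anhydrase of red cells, lay the opposite way, at 230, 645 and 1138 CPM against 999, 1726 and 2134 CPM. Only well H1 of the Gata2-high side (1138 CPM) exceeded the lowest Gata2-low cell, and the summed counts were 2.55-fold lower in Gata2-high cells (2.48 to 2.61). Car2 was at 1464 CPM in the lower intermediate gate and 3260.3 CPM in CFUE.

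Genes with the largest differences were named by a rule. It asked for 50 CPM in the higher side, 10 reads in 75% or more of its cells and no cell with over 50% of its reads, which 106 of the 409 and 68 of the 241 genes met, and it named the 15 largest differences of mean log2(CPM + 10) in each direction. Vim, the intermediate filament vimentin that erythroid cells lose as they mature, was at 60.5, 211 and 795 CPM in Gata2-high cells and at 0, 24.9 and 259 CPM in Gata2-low cells. Wells H3, A1 and G1 of the Gata2-low side held at most 0.620 CPM, and well E1 held 259 CPM. The summed counts were 4.34-fold higher (4.0 to 4.71), and Vim was at 5.73 CPM in the lower intermediate gate and 243 CPM in the cells left out by Cd34.

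Abcg1 (chr17:31057675-31117988), a cholesterol exporter, and Cast (chr13:74692368-74808810), the calpain inhibitor calpastatin, were the genes without overlap on the higher side. Abcg1 was at 30.2, 82.4 and 332 CPM in Gata2-high cells and at 0, 13.6 and 29.1 CPM in Gata2-low cells. Its summed counts were 9.08-fold higher (7.70 to 10.8). Cast was at 32.6, 56.7 and 141 CPM against 0, 16 and 27.8 CPM, 4.85-fold higher (4.10 to 5.78). For both, the gap between the nearest cells of the sides was small. In summed counts Cast was at 43.2 CPM in the lower intermediate gate and 110 CPM in CFUE, above the 13.9 CPM of the Gata2-low cells, and 7.3% of its exon bases overlap Erap1 on the opposite strand.

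Several of the named genes encode leukocyte proteins. Coro1a (coronin 1A, an actin regulator of blood cells) was at 1.31, 93.8 and 519 CPM against 0.669, 3.72 and 115 CPM, 5.98-fold higher in summed counts (5.31 to 6.75). Itgal, the alpha subunit of the integrin LFA-1, was at 0, 76.9 and 287 CPM against 0, 1.29 and 75.1 CPM, with well B3 alone at 0 on the Gata2-high side. Rassf5, an activator of that integrin, was at 50.5, 115 and 189 CPM against 0, 21.7 and 52.2 CPM, and of the Gata2-low cells only well E1 (52.2 CPM) exceeded the lowest Gata2-high cell, well G3. Dok2, an adaptor that restrains cytokine receptors, was at 0, 82.6 and 357 CPM against 0, 3.26 and 62.9 CPM. Rgs18, a regulator of G protein signals in megakaryocytes and platelets, was at 13.8, 92.4 and 259 CPM against 0.669, 13.1 and 50.3 CPM. Smarca2, an ATPase of chromatin remodelling, was at 0.658, 44.2 and 138 CPM and at most 6.20 CPM in Gata2-low cells, 26.1-fold higher (17.1 to 41.8).

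The other named genes of this direction were Anxa5, Rab37, Emilin2, Gba2, Npepl1 and Ephx2, between 2.77-fold and 7.38-fold higher in summed counts. Coro1a, Dok2, Rassf5 and Rab37 were also present in the cells left out by Cd34 (129 to 1862 CPM) and at 0.644 to 17.8 CPM in the lower intermediate gate. Emilin2 and Ephx2 were not of this kind, with 7.52 and 0.167 CPM in the cells left out by Cd34 and 73.3 and 12.4 CPM in the lower intermediate gate. Among 17 measured integrin and adhesion genes, 5 were past 2-fold higher (Itga2b, Itgb7, Itgal, Pecam1 and Vim) and 1, Cd82, was past 2-fold lower (against 5.22% and 3.07% of all measured genes).

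The red cell membrane was the group furthest to the Gata2-low side among lists with 5 or more measured genes. Of 27 genes in that list 19 were measured, of which 6 were past 2-fold lower in Gata2-high cells (against 3.07% of all measured genes) and 1 past 2-fold higher (against 5.22%, so near the background), and the median log2 ratio was -0.78. The score was 6.0 ± 0.20 (SD, n = 8 cells) against 6.60 ± 0.42 (SD, n = 7 cells), a difference larger than either SD. The number of the 19 genes at 10 CPM or more was 10 to 16 per Gata2-high cell, 14 to 18 per Gata2-low cell and 15 to 19 in the lower intermediate gate, but 5 to 7 in the cells left out by Cd34. All Gata2-high cells lay at or below a score of 6.25, whereas 4 Gata2-low cells were at 6.84 or above.

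Rhag (chr17:40811126-40840754) and Rhd (chr4:134864536-134896172) encode the Rh glycoprotein and the Rh antigen, which form an ammonia channel complex. Rhag was at 1.25, 62.8 and 279 CPM in Gata2-high cells and at 76.4, 157 and 600 CPM in Gata2-low cells. Wells D1, G2 and G3 held at most 4.21 CPM of it, and among Gata2-high cells B3, C3, D3 and H1 alone exceeded the lowest Gata2-low cell. Its summed counts were 3.10-fold lower (2.89 to 3.33). Rhd was at 1.25, 36.4 and 65.5 CPM against 1.78, 173 and 396 CPM, 4.76-fold lower (4.33 to 5.23), and every Gata2-low cell except well A3 exceeded every Gata2-high cell. Both are higher in later gates, Rhag at 369 CPM in the lower intermediate gate and 662 CPM in CFUE, and Rhd at 278 and 698 CPM.

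Cldn13, a claudin of mouse erythroid cells, was at 0, 0.263 and 21.8 CPM in Gata2-high cells and at 1.19, 57.6 and 175 CPM in Gata2-low cells, 20.1-fold lower (14.8 to 27.9). Well C3, the Gata2-high cell nearest to the limit, held 79.5% of its reads on that side. Epb42, a protein of the membrane skeleton, was 8.66-fold lower (6.19 to 12.4), at no more than 84.2 CPM in any cell. Tmod3, a tropomodulin that caps actin filaments, was the member past 2-fold higher, at 33.8, 137 and 238 CPM against 2.27, 68.1 and 106 CPM. Ermap and Kel, surface antigens of red cells, were lower in summed counts but not past 2-fold, at 1.36-fold and 1.44-fold without their top cell.

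Heme synthesis lay the same way with smaller differences. Of 14 measured genes of 17, 13 had the lower mean of log2(CPM + 10) in Gata2-high cells. Of the 14, 2 were past 2-fold lower and 1 past 2-fold higher (against 3.07% and 5.22% of all measured genes), and the median log2 ratio was -0.38. The score was 6.42 ± 0.31 (SD, n = 8 cells) against 6.89 ± 0.25 (SD, n = 7 cells). Cpox, the enzyme that makes protoporphyrinogen, was at 11.9, 16 and 56 CPM against 2.61, 120 and 177 CPM, 3.38-fold lower (3.04 to 3.76). Well E1 was the lowest cell of all at 2.61 CPM, and the 6 other Gata2-low cells exceeded every Gata2-high cell. Abcb10, a mitochondrial transporter of the heme path, was at 1.25, 5.59 and 105 CPM against 2.38, 78.7 and 197 CPM, 4.28-fold lower (3.78 to 4.85). Alad, the second enzyme of the path, was 1.36-fold lower (1.32 to 1.40).

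**Figure D4:**
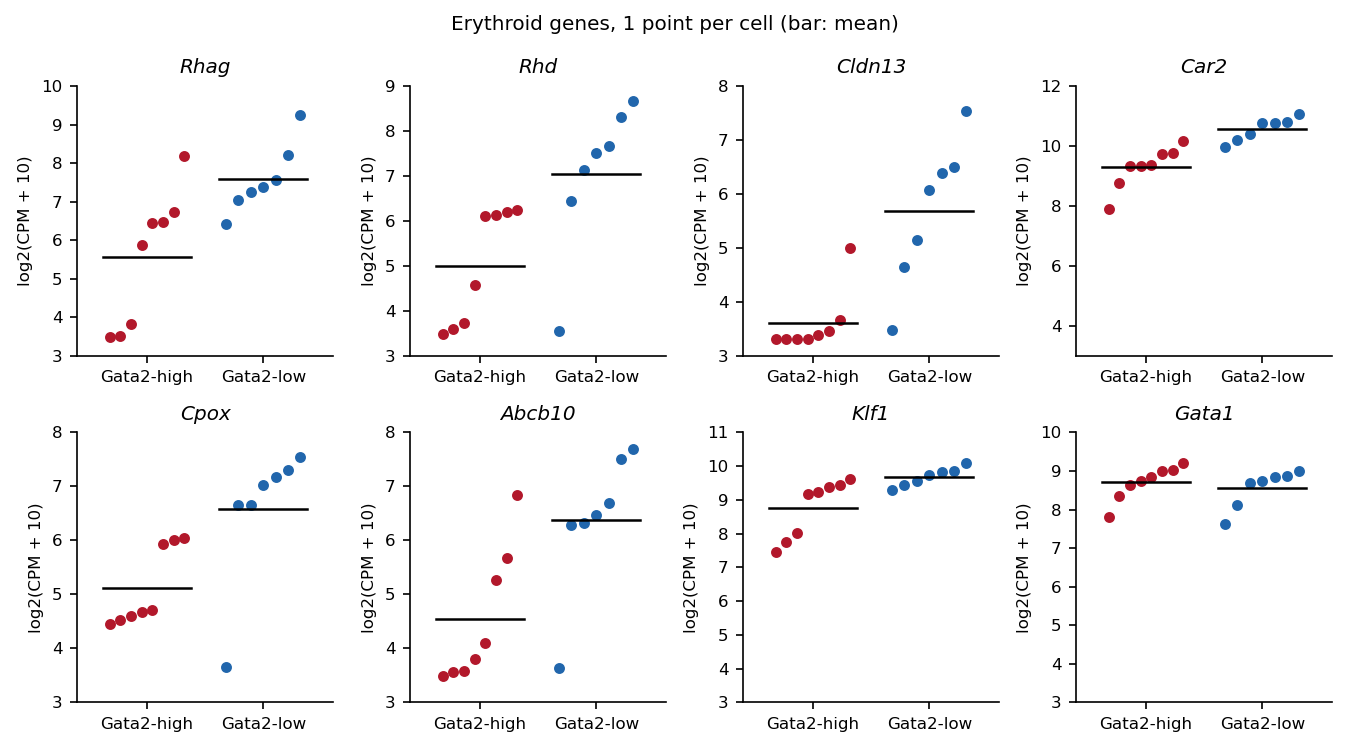
Log2(CPM + 10) of 8 erythroid genes in each of the 8 Gata2-high (red) and 7 Gata2-low (blue) cells, with the mean of each side as a bar. Rhag, Rhd, Cldn13, Car2, Cpox, Abcb10 and Klf1 have the lower mean in the Gata2-high cells and overlap between sides, and Gata1 spans nearly the same range on both.

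The erythroid transcription factors scored slightly lower in Gata2-high cells, at 6.54 ± 0.24 (SD, n = 8 cells) against 6.78 ± 0.15 (SD, n = 7 cells), a difference of -0.24 that is about as large as the larger SD. Of 18 measured, 1, Foxo3, was past 2-fold higher in Gata2-high cells, which is near the 5.22% of all measured genes. In the other direction 0 were past 2-fold lower (against 3.07%), and the median log2 ratio was -0.19. Klf1, the erythroid Kruppel-like factor, was at 167, 579 and 785 CPM against 612, 844 and 1094 CPM, 1.59-fold lower in summed counts (1.54 to 1.63). Wells A2, D1 and G2 held 167 to 250 CPM of it and the other 5 Gata2-high cells 567.6 to 785 CPM. Ikzf1, a zinc finger factor of blood cells, was 1.92-fold lower (1.84 to 2.01). Nfe2, which serves both platelet and globin genes, was at 104 to 506 CPM against 140 to 281 CPM. Epor, the erythropoietin receptor, was at 16.2, 191 and 230 CPM against 121, 185 and 365 CPM, with well D1 lowest, and was 1.55-fold lower (1.46 to 1.64). The 15 measured genes of iron uptake and storage held 0 past 2-fold in either direction, with a median log2 ratio of -0.30.

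The remaining named genes of the lower direction came from growth, transport and other functions. Urgcp (chr11:5713417-5762376), a gene linked to cell growth, was the gene without overlap in that direction, at 0.526, 7.28 and 73.7 CPM in Gata2-high cells and at 79.8, 106 and 128 CPM in Gata2-low cells. Its summed counts were 6.53-fold lower (5.68 to 7.54), and wells of the Gata2-high side other than 2 held under 10 CPM. It was at 74.3 CPM in the lower intermediate gate and 36.9 CPM in the cells left out by Cd34, and 3.8% of its exon bases are shared with Mrps24 on the same strand. Nxpe2 was at 0.624, 8.38 and 61.9 CPM against 21.6, 111 and 279 CPM, 6.06-fold lower (5.37 to 6.84), and reached 505 CPM in CFUE. Aplp2, an amyloid precursor-like protein, was at 3.76, 88.5 and 351 CPM against 125, 322 and 642 CPM. Atp1b2, a subunit of the sodium pump, was at 0.627, 108 and 298 CPM against 159, 343 and 413 CPM. Haus2, Trappc11, Nek1, Klhl22, Ap5z1, Ublcp1 and Fam118b completed the named genes, between 2.64-fold and 5.74-fold lower. For these 7 genes the summed CPM of Gata2-low cells, and not that of Gata2-high cells, was at or above the lower intermediate level.

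**Figure D5:**
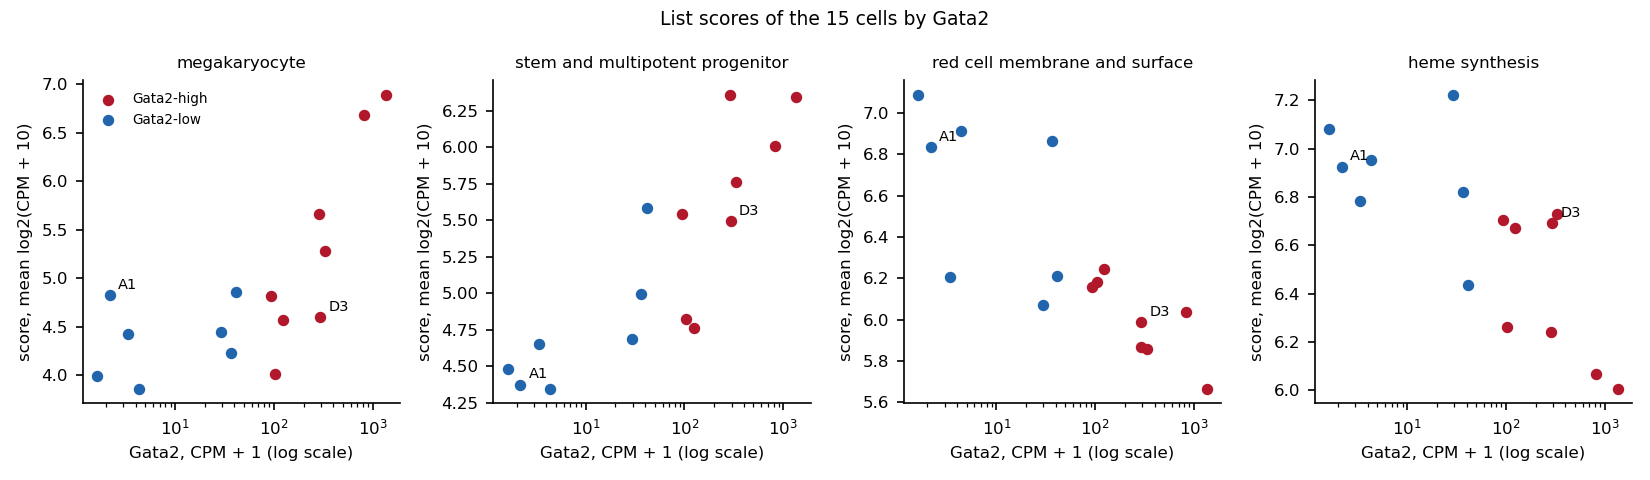
Scores of 4 gene lists (mean log2(CPM + 10) of the measured members) against Gata2 as CPM + 1 on a log axis for the 8 Gata2-high (red) and 7 Gata2-low (blue) cells; wells D3 and A1 are named. The megakaryocyte scores of D1 (6.89) and G2 (6.69) stand above all others, D3 (4.60) lies within the Gata2-low range, and the red cell membrane scores lie between 5.67 and 6.25 in all Gata2-high cells.

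Position along the erythroid path was read from genes that the choice of cells did not use. A progression score was the mean of log2(CPM + 10) over 120 genes higher in CFUE than in the lower intermediate gate minus that over 123 genes lower in CFUE. It was -1.85 ± 0.18 (SD, n = 8 cells) in Gata2-high cells, between -2.17 and -1.55, and -1.33 ± 0.51 (SD, n = 7 cells) in Gata2-low cells, between -1.87 and -0.40. The lower intermediate gate was at -0.98, the upper at 0.49 and CFUE at 1.83. With genes taken from CFUE against the upper intermediate gate instead, the scores were -1.59 ± 0.53 and -1.42 ± 0.34, a difference of -0.17 that was smaller than either SD. With genes from the upper against the lower intermediate gate, they were -2.41 ± 0.33 and -1.62 ± 0.92, a difference smaller than the larger SD. On the first score, wells H3 (-0.40) and G1 (-0.96) of the Gata2-low side stood nearest to the later gates, while A3 (-1.87) and E1 (-1.83) lay within the Gata2-high range. Of the 101 measured genes higher in CFUE, 21 were past 2-fold lower in Gata2-high cells and 1 past 2-fold higher (against 3.07% and 5.22% of all measured genes), and of the 123 lower in CFUE, 2 were past 2-fold lower and 0 higher. The cells left out by Cd34 had nearly the same score (-1.82), although their means were lower both for the genes higher in CFUE (4.61 against 4.93) and for those lower in CFUE (6.43 against 6.78).

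Cell cycle and growth genes overlapped between the sides. Of 28 S phase genes 1, Ccne1 (cyclin E1, which drives entry into S phase), was past 2-fold lower in Gata2-high cells, which is near the 3.07% of all measured genes, at 1.32, 62.2 and 135.03 CPM against 3.52, 232 and 793 CPM. The S phase score was 7.71 ± 0.50 against 7.99 ± 0.57 (SD, n = 8 and 7 cells), a difference smaller than either SD. No G2 and M phase gene of 25 was past 2-fold, and that score was 7.15 ± 0.78 against 6.82 ± 0.62. Among 10 measured G1 genes 2, the inhibitor Cdkn2d and the activator E2f2, were past 2-fold higher (against 5.22% of all measured genes). Ribosome biogenesis (22 genes), ribosomal proteins (24) and oxidative phosphorylation (24) held 0 genes past 2-fold in either direction. Of 18 measured glycolytic genes, 1, Pfkp, was past 2-fold higher (against 5.22% of all measured genes). Bpgm, which makes the red cell regulator 2,3-bisphosphoglycerate, was the 1 past 2-fold lower (against 3.07%).

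Receptors and hormone response genes gave a few differences toward the Gata2-high side. Each count here stands against 5.22% higher and 3.07% lower of all measured genes. Of 11 measured early cytokine and growth receptors, 3 were past 2-fold higher, Il1rl1 and Insr among them, and 0 past 2-fold lower. Of 11 measured genes of the glucocorticoid response and BFU-E self-renewal, the hormone-induced Tsc22d3 was past 2-fold higher, at 0, 12.5 and 125 CPM against 0, 0 and 33.3 CPM. Zfp36l2, an RNA-binding protein needed for BFU-E self-renewal, was at 42.3, 95.9 and 195 CPM against 15.7, 44.4 and 105 CPM, 2.03-fold higher (1.85 to 2.24) but 1.83-fold without the top cell. Of 9 measured erythropoietin and Stat5 genes 2 were past 2-fold higher, with Gab2 among them, and of 4 measured immediate early genes Ier2 and Ier3 were. Il1rl1, Tsc22d3 and Ier3 were under 10 CPM in the summed counts of the Gata2-low cells, so these counts are descriptions and no test.

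Markers of other cell types were mostly not measured. Of 13 hepatoblast genes 4 were measured and 2, Alb and Ahsg, were past 2-fold higher (against 5.22% of all measured genes). Alb (albumin) was at 0, 47.7 and 621 CPM in Gata2-high cells and 1.34, 17 and 88.2 CPM in Gata2-low cells, with wells A2 and B3 highest. The list's summed level was 13.7 to 1764 CPM in Gata2-high cells and 64 to 264 CPM in Gata2-low cells. Neutrophil and monocyte genes summed to 1.32 to 184 CPM and 7.75 to 82.4 CPM, with Elane, Ctsg and S100a8 at 0 reads. The macrophage genes Adgre1, C1qa, C1qb and Vcam1 had 0 reads, and no lymphoid gene was measured. Of 12 endothelial and stromal genes 2 were measured, of which Pecam1, an adhesion molecule also of stem cells and platelets, was past 2-fold higher, and Cdh5 and Lyve1 had 0 reads. Their part in the differences above was not tested. Ahsg and Pecam1 were under the limit for measured genes in the summed counts of the Gata2-low cells, so their calls are descriptions only. Globin genes were not measured in these cells, at 5.24 to 23.2 CPM and 9.68 to 36.8 CPM in sum, and their near-identical copies may share reads.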

How the data were processed

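Per the submitters' processing notes, reads were aligned with STAR 2.4 to GRCm38 and counted per gene with featureCounts, and the deposited values are raw read counts without molecular identifiers. Whether counting used strand is not given in the sources used here, so overlapping genes are uncertain. The table held 49466 genes, no 2 cells had identical values, and every column had a sample. Counts were scaled to CPM over all genes. Sums over a side carry exact 95% intervals for counting error only. Groups came from the sort gates in the labels and sides from Gata2 and Cd34. The members and gene lists were chosen with earlier results of these data known. Named genes are the 15 largest differences in each direction under the rule in the text, the markers, and up to 4 members per list. Other list members were named after their values were seen. Python 3.11.15, numpy 2.4.6, pandas 2.3.3 and scipy 1.17.1 were used. For alternative scaling only, factors came from edgeR 4.0.16 and DESeq2 1.42.0. The calling rule was checked on simulated data that varied between cells by counting error only. That check cannot show how often genes that vary more between cells pass the rule. Other thresholds, scalings, pseudocounts and cell selections were tried. The values of some list members are not reported here, though counts and scores of the lists include them.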

Additional observations from a re-analysis of the deposited data

Results flagged for a closer look

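In 222 groups of 7 or 8 cells, 24 values stood apart from the rest of their side by Dixon's criterion (critical values 0.526 for 8 cells and 0.568 for 7). For normally distributed values chance alone marks about 1 group in 20. That rate does not hold for single genes with most cells at 3.322, the value without reads, where 1 read can mark a cell. The read total of well D3 was 3785903, with the other Gata2-high cells at 1899938 or fewer. Among list scores, the Gata2-low well G1 stood high for GATA factors and partners (7.142). The Gata2-high well D1 stood high for mast cell genes (7.444) and glycolysis (8.556), and well G2 low for ribosomal proteins (9.932).

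The other values are log2(CPM + 10) of single genes. Well E1, the Gata2-low cell nearest to the limit, stood apart in 5 genes, high in Ikzf2 (4.949), Il1rl1 (5.62) and, with 1 read, Mmrn1 (3.413), and low in Cpox (3.657) and Ap5z1 (4.307). Well A3 of the same side was high in Gp9 (4.944) and Vwf (5.512) and low in Abcb10 (3.629). Well A1 was high in Stat5a (8.849), E2f2 (5.139) and, with 1 read, Angpt1 (3.404), and low in Trappc11 (3.404). Of the Gata2-high cells, well C3, nearest to the limit, was high in Cldn13 (4.992) and Epb42 (5.02). Well H1 was low in Cd48 (3.322) and Cdk6 (7.751), well B3 low in Itgal (3.322) and Pfkp (3.322), and well D3 low in Tmod3 (5.453).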

How the results depend on the processing

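The number of genes past 2-fold depended on the rule and on the cells. No score or single-gene difference larger than its SD between cells changed sign under these alternatives. Smaller differences did in some, such as that of Tsc22d3, past 2-fold higher over all rows, in plate rows E to H. Against 409 higher and 241 lower genes, 890 and 642 passed with no filter on low genes, 67 and 33 when measured at 50 CPM, 842 and 570 at 1.5-fold, 174 and 91 at 3-fold, 747 and 477 from summed counts alone, and 756 and 427 from the mean per cell alone. The higher count was 1121 in plate rows A to D, with only 2 Gata2-low cells, and 692 in cells with Xist. The lower count was 567 in rows E to H, with 3 Gata2-high cells, and 421 without cells near the limit, where 50.6% of genes past 2-fold were higher. Leaving out each cell in turn gave 356 to 498 higher and 227 to 299 lower. Of the 3 genes without overlap, the count became 54 without cells near the limit, 692 in rows A to D, 278 in rows E to H and 227 in cells with Xist, each with fewer cells, and 3 to 14 with 1 cell left out.

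The score difference was positive in all 25 alternatives for megakaryocyte genes (0.506 to 1.55) and stem cell genes (0.481 to 1.58) and negative in all for red cell membrane genes (-0.912 to -0.356). With a pseudocount of 1 CPM it was 1.4 for mast cell genes, 1.576 for stem cell genes and 0.8917 for early receptors. In rows A to D it was 0.4724 for S phase and -0.2734 for ribosome biogenesis, and in rows E to H 0.1939 for the latter. The cause was not tested. The selection on Xist was chosen after seeing the data. Thinned to the depth of the shallowest cell, 405 and 233 genes were past 2-fold, with 336 and 193 among the 409 and 241. The progression difference lay between -0.889 and -0.172, all negative. No paired analysis was possible because the labels tie no cell of one side to a cell of the other.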

Other observations

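Xist differed in level as well as in occurrence, a comparison chosen after its values were seen. Among cells with 5 CPM or more, the 5 Gata2-high cells held 89.8 to 192 CPM and the 3 Gata2-low cells 9.92 to 48.9 CPM, so these did not overlap. Itga2b and Rhag, a megakaryocyte and an erythroid membrane gene, were both at 10 CPM or more in 3 of 8 Gata2-high and 4 of 7 Gata2-low cells.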
